A study of Mus musculus with 24 samples.

Results

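The proteasome genes of the mouse retina were followed through 4 time points of reoxygenation after hypoxia. They were taken as every probe set (the group of short probes that stands for 1 transcript on the array) whose annotated gene symbol starts with Psma, Psmb, Psmc, Psmd, Psme or Psmg followed by a digit. This gave 48 of the 18193 genes on the array, or 100 of the 45037 probe sets analysed. Of these 100, 99 carry 1 gene symbol and belong to the 48 genes, and 1 carries both Psme2 and Psme2b and is not counted under either gene. BALB/c mice, homozygous for the light sensitive Leu450 variant of Rpe65, breathed 6% oxygen for 6 h and were then returned to room air in darkness for 0, 2, 4 or 16 h. Normoxic controls of the same strain and genotype were kept in parallel and taken at the same 4 times, so each time point has its own controls. The age of the mice is not given in the sources used here. Each of the 24 arrays held 1 pool of 3 retinas from 3 mice, with 3 pools in each of the 8 groups, and the pool is the unit of every test. Whole retinas were used, so fewer cells of a type and less RNA per cell cannot be told apart.

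The proteasome is the main protease of the cytosol and nucleus and degrades proteins tagged with ubiquitin. Its 20S core is a barrel of alpha rings (Psma genes) around beta rings (Psmb genes), and Psmb5, Psmb6 and Psmb7 carry the cutting sites. The 19S cap consists of a base, where 6 ATPases (Psmc genes) unfold the substrate, and a lid (most Psmd genes), where ubiquitin is removed. Dedicated chaperones assemble the core (Psmg genes) and the base (Psmd5, Psmd9 and Psmd10), and activators (Psme genes) can open the core in place of the 19S cap. Photoreceptors, the most numerous cells of the retina, renew their proteins at a high rate. The symbol rule also takes in genes that make no part of the proteasome, since Psmc3ip encodes a factor of meiotic recombination and Psme3ip1 a protein that binds the activator Psme3.

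Levels are log2 signals of the arrays, and a log2 change is the mean of the hypoxic pools minus that of the normoxic pools. At each time point, probe sets entered the test if either mean reached 6.69, the valley between the peaks of the signal distribution, and were called changed at an adjusted p under 0.05 (limma, Benjamini-Hochberg over all probe sets tested). Where a gene has several probe sets, the one with the highest mean over all arrays represents it. Of the 100 probe sets, 68 were tested at all time points and 29 at none. No probe set of Psma8, Psmb8, Psmb9 or Psmb11 was tested at any time, so 44 genes remained. Array medians lay between 5.79 and 5.83. The rod photoreceptor markers averaged 13.10 to 13.43 over the 24 arrays, as a retinal sample should show. Signal of the retinal pigment epithelium, which lies against the retina, differed at 0 h. All 7 of its tested markers were higher after hypoxia, and the mean over the 9 listed markers was 8.59 to 8.75 in hypoxic and 6.06 to 6.51 in normoxic pools. At 2 h that mean was 7.28 to 8.42 in hypoxic and 6.51 to 7.82 in normoxic pools, with none of 7 called. All 7 still had a positive log2 change at 2 h, with a median of 0.90, and 5 had an unadjusted p under 0.05 (limma). The 9 lens markers were not called at 0 h, with means of 11.31 to 13.02 in hypoxic and 7.94 to 12.23 in normoxic pools, the lowest being normoxic pool 2. All 9 had a positive log2 change at 0 h, with a median of 1.56, and 8 had an unadjusted p under 0.05 (limma). The part of these markers in the values below was not tested.

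Immediately after hypoxia a few proteasome genes were called lower and fewer were called higher, and all changes were below 2-fold. The calls leaned to decreases, but at an unadjusted p under 0.05 (limma) 12 probe sets were higher and 11 lower. Of 70 tested probe sets, 6 rose and 10 fell, which is 8.57% and 14.3%, against 15.2% and 17.2% of all 18799 probe sets tested at 0 h, where 32.4% changed in either direction. Counted by the representative probe set, 2 of 44 genes rose and 6 fell. Without Psmc3ip and Psme3ip1, which make no part of the proteasome, 2 of 42 genes rose and 5 fell. The median log2 change of the 70 probe sets was -0.06, with a range of -0.87 to 0.47, and that of all tested probe sets was -0.01. Hypoxic pools lay above all normoxic pools in 12 probe sets and below all of them in 22, where the background over all probe sets was 21.5% and 23.9%. Leaving out 1 array at a time gave 11 to 18 changed probe sets. With both normoxic pool 2 of 0 h and normoxic pool 3 of 16 h left out, a setting that was not planned, 11 were changed.

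At 2 h all calls were increases. Of 70 tested probe sets, 12 rose and 0 fell, which is 17.1% and 0%, against 9.19% and 7.38% of all 18587 tested at 2 h, where 16.6% changed in either direction. These 12 probe sets belong to 10 genes, and without Psme3ip1, which makes no part of the proteasome, to 9. At an unadjusted p under 0.05, 16 were higher and 2 lower, and the methods' t-test with adjustment called 1 higher and 0 lower. The median log2 change was 0.07 (range -0.24 to 0.43), and 0.01 for all probe sets tested. In 18 probe sets the hypoxic pools lay above every normoxic pool and in 5 below, with backgrounds of 19.8% and 14.9%. The count depended on single arrays, since 5 probe sets were changed without hypoxic pool 1 of 2 h, and 3 were changed when the 6 arrays of 2 h were fitted alone (Psmd6, Psmd9 and Psmd13).

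**Figure D1:**
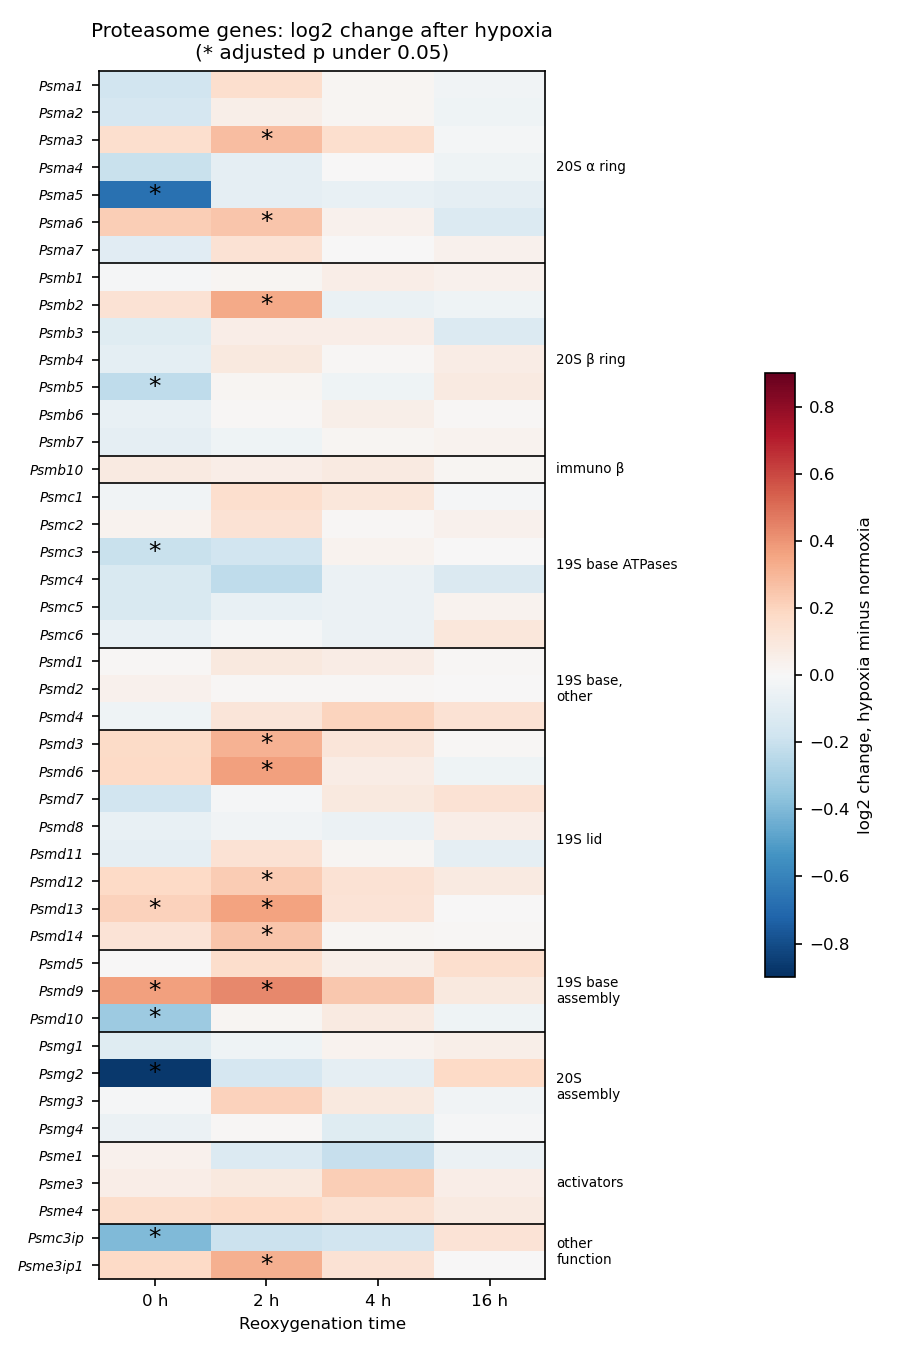
Log2 change (hypoxia minus normoxia, colour scale) of the 44 tested genes of the symbol rule in rows, at 0, 2, 4 and 16 h of reoxygenation in columns. Rows are ordered by place in the proteasome, with Psmc3ip and Psme3ip1, which make no part of it, last. Asterisks mark adjusted p under 0.05. At 0 h 6 genes are lower and 2 higher, at 2 h 10 are higher, and no gene is marked at 4 or 16 h.

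Averaged over the 44 genes, the signal at 0 h was 10.16, 10.21 and 10.25 in the hypoxic pools and 10.26, 10.26 and 10.25 in the normoxic pools. At 2 h it was 10.28, 10.33 and 10.28 in hypoxic pools, against 10.22, 10.21 and 10.21 in normoxic pools. By this mean the groups met at 0 h and were apart at 2 h. The median of the 44 genes gave the reverse. At 0 h it was 10.37, 10.45 and 10.49 in hypoxic pools and 10.63, 10.59 and 10.63 in normoxic pools, so the groups were apart. At 2 h it was 10.46, 10.60 and 10.53 in hypoxic pools and 10.52, 10.44 and 10.62 in normoxic pools, with overlap. For the 20S core genes alone, the hypoxic mean at 0 h was 10.87, 10.97 and 10.98, against 11.06, 11.02 and 11.03 in normoxia. The 19S genes averaged 10.63, 10.67 and 10.71 in hypoxic pools at 0 h and 10.67 in each of the normoxic pools. The core means were thus apart at 0 h by little, 10.98 against 11.02, and the 19S means overlapped. Of the 14 core genes tested at 0 h, 2 were called lower and 12 were not called. The largest fall among them was that of Psma5 (-0.67). Its part in the core mean was not tested, and neither was the difference between core and cap.

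Among the assembly factors of the core, Psmg2, which forms a dimer with Psmg1 that guides the building of the alpha ring, showed the largest change of all proteasome genes. At 0 h its signal was 8.85, 8.80 and 8.78 in hypoxic pools and 9.53, 9.66 and 9.84 in normoxic pools. The hypoxic pools were close together and all lay far below the normoxic ones. The log2 change was -0.87 ± 0.11 (SE, n = 3 pools each) with an adjusted p of 2.21e-06, so the signal fell by 45.3%. A further probe set of Psmg2 gave 8.51, 8.88 and 8.60 in hypoxic pools and 9.49, 9.31 and 9.32 in normoxic pools, a log2 change of -0.71 (adjusted p = 4.95e-05). By 2 h the first probe set was at 9.35, 9.37 and 9.46 in hypoxic pools and at 9.47, 9.36 and 9.81 in normoxic pools, so that the groups overlapped. The other probe set was still below its controls at 2 h, at 9.05, 8.98 and 9.08 in hypoxic pools and 9.23, 9.16 and 9.37 in normoxic pools, without a call (-0.22, adjusted p = 0.204). For the first probe set, the change at 0 h minus the change at 2 h was -0.72 ± 0.15 (adjusted p = 0.00386), and minus the change at 16 h it was -1.05 ± 0.15 (adjusted p = 4.53e-05). For the other one, the difference between 0 and 2 h was -0.50 ± 0.16 and was not called (adjusted p = 0.0561). Its partner Psmg1 (-0.11), Psmg3 (-0.01) and Psmg4 (-0.05), the other core chaperones, were not called at 0 h, and none of the 4 was called at 2 h, where Psmg3 had a log2 change of 0.21 (adjusted p = 0.0762).

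In the alpha ring, 1 of 7 tested genes fell at 0 h and 0 rose by the representative probe set, with a median of -0.15. Over its 12 tested probe sets, 1 rose and 2 fell (8.33% and 16.7%, against 15.2% and 17.2% of all probe sets). The gene that fell was Psma5, which encodes the alpha5 subunit. Its signal at 0 h was 9.95, 10.18 and 10.00 in hypoxic pools, against 10.62, 10.68 and 10.82 in normoxic pools. No hypoxic pool came near the lowest normoxic one, and the log2 change was -0.67 ± 0.09 (adjusted p = 1.34e-05), so the signal fell by 37.0%. The other tested probe set of Psma5 agreed in direction, with 9.72, 9.92 and 9.71 in hypoxic pools and 10.35, 10.34 and 10.27 in normoxic pools (log2 change -0.54, adjusted p = 2.41e-05). At 2 h the first probe set was back among its controls, at 10.41, 10.59 and 10.57 in hypoxic pools and 10.58, 10.43 and 10.80 in normoxic pools. The effect at 0 h differed from those at 2, 4 and 16 h for both probe sets, with adjusted p between 0.000517 and 0.00742. Psma4 (-0.20, adjusted p = 0.0544), Psma1 (-0.17) and Psma2 (-0.15) lay on the same side without passing the test, while Psma6 (0.22, adjusted p = 0.0511) and Psma3 (0.15, adjusted p = 0.094) lay on the other side, with every hypoxic pool above the normoxic ones and no call.

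At 2 h the alpha ring had 2 of 7 genes higher and 0 lower, with a median of 0.13, and 3 of 12 probe sets higher (25%, against 9.19% of all). Psma3 gave 12.24, 12.13 and 12.14 in hypoxic pools and 11.86, 11.84 and 11.98 in normoxic pools (log2 change 0.28 ± 0.07, adjusted p = 0.00782), and the call was lost without hypoxic pool 1 (0.24, adjusted p = 0.0511). The other tested probe set of Psma3 was not called. Its log2 change was 0.01 at 2 h (adjusted p = 0.978) and -0.16 at 0 h (adjusted p = 0.412). Psma6 gave 11.52, 11.37 and 11.42 in hypoxic pools, against 11.26, 11.01 and 11.30 in normoxic pools (0.25 ± 0.08, adjusted p = 0.0494). This call stood at the threshold and was lost in 21 of the 24 fits that left out 1 array, with adjusted p up to 0.242. The second tested probe set of Psma6 rose at both times, by 0.24 at 0 h (adjusted p = 0.0132) and by 0.21 at 2 h (adjusted p = 0.0416). Leaving out 1 array ended the first of these calls without hypoxic pool 3 or normoxic pool 2, and the second without any of 5 of the 6 arrays of 2 h, the exception being normoxic pool 3.

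In the beta ring, the catalytic subunit Psmb5, which cuts after hydrophobic residues, fell at 0 h. Its signals were 10.93, 10.95 and 10.99 in hypoxic pools and 11.21, 11.19 and 11.16 in normoxic pools. Pools of either group lay within a narrow band and the bands did not touch, at a log2 change of -0.23 ± 0.06 (adjusted p = 0.00761). The call held on leaving out any 1 array and was lost when the 6 arrays of 0 h were fitted alone. At 16 h the hypoxic pools were at 11.28, 11.28 and 11.25 and the normoxic pools at 11.18, 11.18 and 11.21, and the change at 0 h minus the change at 16 h was called different (-0.31 ± 0.09, adjusted p = 0.0176). The other catalytic subunits of the standard proteasome, Psmb6 (-0.07) and Psmb7 (-0.08), were not called at 0 h. Of the structural beta subunits, a second probe set of Psmb3 was lower (10.43, 10.45 and 10.54 in hypoxic pools against 10.73, 10.72 and 10.66 in normoxic pools, log2 change -0.23, adjusted p = 0.0355), while the representative one was at -0.11 and not called. This call was lost without any of 4 arrays, hypoxic pools 1 and 2 and normoxic pools 1 and 2 of 0 h, with adjusted p up to 0.104.

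The beta ring had 1 of 7 genes higher at 2 h and a median of 0.02, and 1 of 9 probe sets higher (11.1%, against 9.19% of all). This was Psmb2, a structural subunit, with 9.95, 10.00 and 9.98 in hypoxic pools and 9.79, 9.76 and 9.36 in normoxic pools (log2 change 0.34 ± 0.11, adjusted p = 0.0312). Normoxic pool 3 was the lowest by far, and without it the log2 change was 0.20 (adjusted p = 0.206). Leaving out any one hypoxic pool ended the call too. The immunoproteasome, in which Psmb8, Psmb9 and Psmb10 replace the catalytic subunits after interferon signals, gave little signal. Psmb8 and Psmb9 were below the signal threshold in all groups, with means of 6.13 and 5.90 over the arrays. Psmb10 reached 7.81 in hypoxic and 7.73 in normoxic pools at 0 h and was not called at any time.

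In the 19S base, none of the 6 ATPase genes rose by the representative probe set at either time, and 1 fell at 0 h. Over their 10 tested probe sets, 1 rose and 1 fell at 0 h (10% each, against 15.2% and 17.2% of all) and 0 rose at 2 h (against 9.19%). Psmc3 gave 11.14, 11.16 and 11.09 in hypoxic pools and 11.40, 11.32 and 11.29 in normoxic pools at 0 h, a log2 change of -0.20 ± 0.07 (adjusted p = 0.0377). The groups did not overlap but the call was weak, since leaving out hypoxic pool 1, 2 or 3 or normoxic pool 1 or 2 ended it, with adjusted p up to 0.126. At 2 h the median of the ATPase genes was -0.05, and at an unadjusted p under 0.05 Psmc1 was higher (0.15, adjusted p = 0.112) and Psmc3 lower (-0.17, adjusted p = 0.117). Psmd1, Psmd2 and Psmd4, the base subunits that are no ATPases and include ubiquitin receptors, had log2 changes from -0.04 to 0.04 at 0 h and from 0.01 to 0.11 at 2 h by the representative probe set, with none of these called.

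The chaperones of the base moved in opposite directions at 0 h. Psmd9 gave 8.54, 8.60 and 8.72 in hypoxic pools and 8.22, 8.31 and 8.21 in normoxic pools, a log2 change of 0.37 ± 0.08 (adjusted p = 0.000717). Psmd10, known as gankyrin and also as a partner of the retinoblastoma protein, gave 8.07, 8.16 and 8.17 in hypoxic pools against 8.38, 8.43 and 8.55 in normoxic pools (-0.33 ± 0.08, adjusted p = 0.00483). Psmd5 was not called (0.00, 95% interval -0.15 to 0.14). Psmd9 stayed high at 2 h, with 8.79, 8.67 and 8.59 in hypoxic pools and 8.33, 8.21 and 8.23 in normoxic pools, which was the largest rise of any proteasome gene at that time (0.43 ± 0.08, adjusted p = 0.000842). At 4 h its hypoxic pools, at 8.27, 8.36 and 8.14, still lay above the normoxic pools, at 8.02, 8.03 and 7.99, but the log2 change of 0.24 was not called (adjusted p = 0.117). At 16 h the groups met, at 8.18, 8.16 and 8.26 in hypoxic and 8.12, 8.16 and 8.06 in normoxic pools. For Psmd10, the change at 0 h minus the change at 4 h was called different (-0.40 ± 0.12, adjusted p = 0.0228), a call that was lost without hypoxic pool 1 or normoxic pool 3 of 0 h or hypoxic pool 2 of 4 h.

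**Figure D2:**
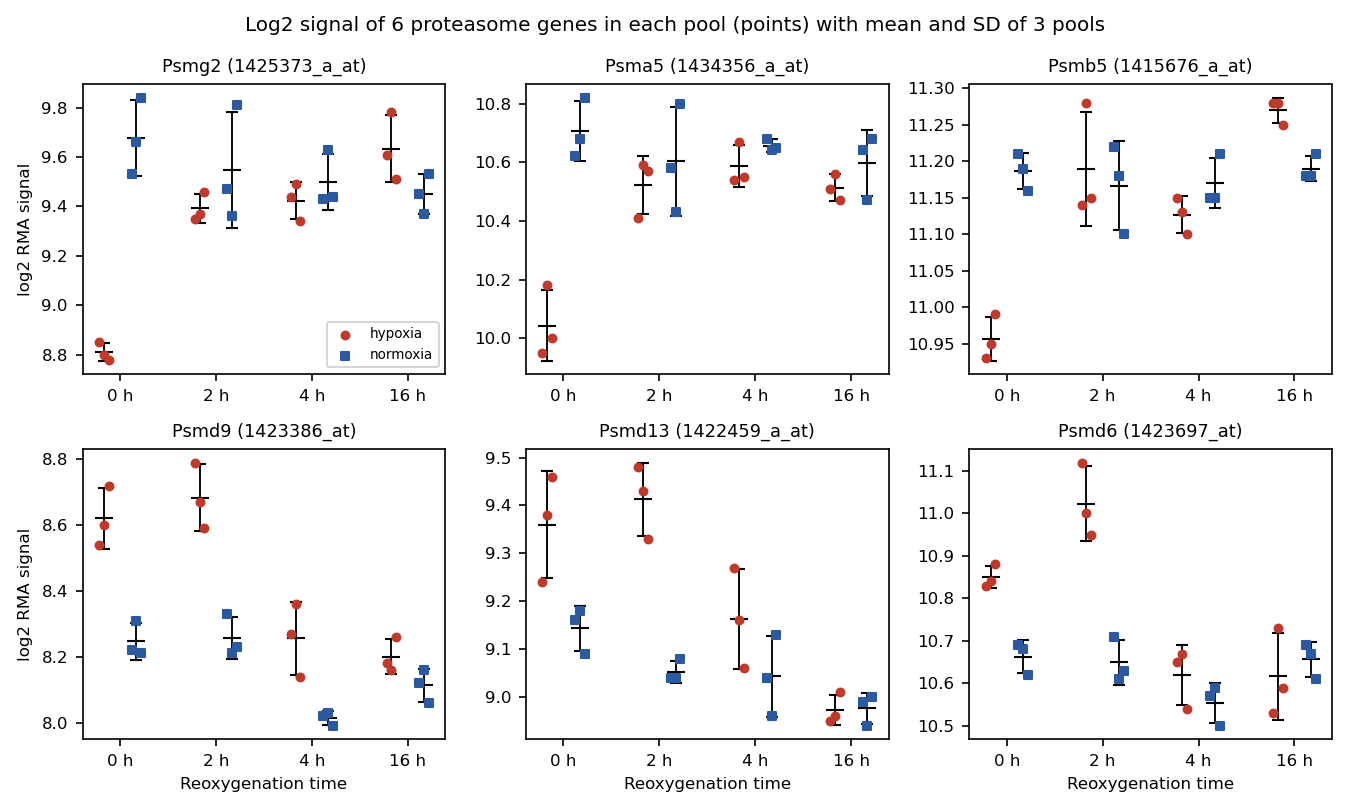
Log2 RMA signal (vertical axis) of 6 proteasome genes at each reoxygenation time (horizontal axis, equally spaced), with hypoxic pools as red circles left of normoxic pools as blue squares and bars for the mean ± SD of 3 pools. Psmg2, Psma5 and Psmb5 are low in the hypoxic pools at 0 h, and Psmd9, Psmd13 and Psmd6 are high at 0 and 2 h, although Psmd6 was called at 2 h only.

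The lid held 5 of the 10 genes that rose at 2 h. Of its 8 genes under the symbol rule, 5 were higher and 0 lower, with a median of 0.24 by the representative probe set. A further lid subunit, Sem1, falls outside the rule and is not in these counts. Sem1 was lower at 0 h (-0.22, adjusted p = 0.0158, a call lost on leaving out single arrays). At 2 h it was not called, with a log2 change of 0. Over all 15 tested probe sets of the lid, 6 were higher (40%, against 9.19% of all probe sets) and 0 lower, 9 had a positive log2 change, and the median was 0.13. At 0 h 1 of 8 genes had been higher and 0 lower, with a median of 0.15, and 2 of 14 probe sets higher (14.3%, against 15.2% of all) and 1 lower, with a median of 0.02. Psmd6 gave 11.12, 11.00 and 10.95 in hypoxic pools at 2 h and 10.71, 10.61 and 10.63 in normoxic pools (0.37 ± 0.07, adjusted p = 0.00156). Psmd13 gave 9.48, 9.43 and 9.33 in hypoxic pools, against 9.04, 9.04 and 9.08 in normoxic pools (0.36 ± 0.08, adjusted p = 0.00299). Both genes encode scaffold subunits of the lid, the pools of the groups did not overlap in these representative probe sets, and both calls held in all refits run for named genes. The second tested probe set of Psmd6 overlapped, at 10.26, 10.09 and 10.38 in hypoxic and 10.16, 9.78 and 10.26 in normoxic pools at 2 h (0.18, adjusted p = 0.356), and had a log2 change of 0.01 at 0 h. Psmd3 gave 9.90, 9.80 and 9.81 in hypoxic pools and 9.62, 9.61 and 9.36 in normoxic pools (0.31 ± 0.08, adjusted p = 0.00895). Without normoxic pool 3, the lowest of them, its log2 change was 0.23 (adjusted p = 0.0658).

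Psmd14, the enzyme that removes ubiquitin chains from substrates at the entry of the proteasome, gave 11.18, 11.18 and 11.12 in hypoxic pools at 2 h and 10.92, 10.89 and 10.90 in normoxic pools (0.25 ± 0.07, adjusted p = 0.019). Psmd12 gave 10.37, 10.26 and 10.27 in hypoxic pools and 10.02, 10.05 and 10.13 in normoxic pools (0.23 ± 0.07, adjusted p = 0.0264). The groups did not overlap in either gene. The call of Psmd14 was lost without hypoxic pool 1 or 2 or normoxic pool 2 or 3, and that of Psmd12 without hypoxic pool 1 or normoxic pool 1 or 2, with adjusted p up to 0.119. Psmd11 (0.13), Psmd7 (-0.01) and Psmd8 (-0.03), the remaining lid genes under the symbol rule, were not called at 2 h. Psmd13 was the lid gene called at 0 h as well, with 9.24, 9.38 and 9.46 in hypoxic pools and 9.16, 9.18 and 9.09 in normoxic pools (0.21 ± 0.08, adjusted p = 0.0355). Here the lowest hypoxic pool came close to the highest normoxic one, and leaving out hypoxic pool 2 or 3 or any normoxic pool of 0 h ended the call.

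For the lid genes called at 2 h and not at 0 h, the effects at these times were not shown to differ. The effect at 0 h minus that at 2 h was -0.19 ± 0.10 for Psmd6 (adjusted p = 0.297), -0.14 ± 0.11 for Psmd3, -0.13 ± 0.10 for Psmd14 and -0.06 ± 0.10 for Psmd12, and Psmd6, Psmd3 and Psmd12 had log2 changes of 0.17 to 0.18 at 0 h. Whether the lid as a group differs from the ATPases was not tested. The rod markers averaged 13.10 to 13.22 in hypoxic pools and 13.29 to 13.35 in normoxic pools at 2 h, and their part in the lid values was not tested.

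**Figure D3:**
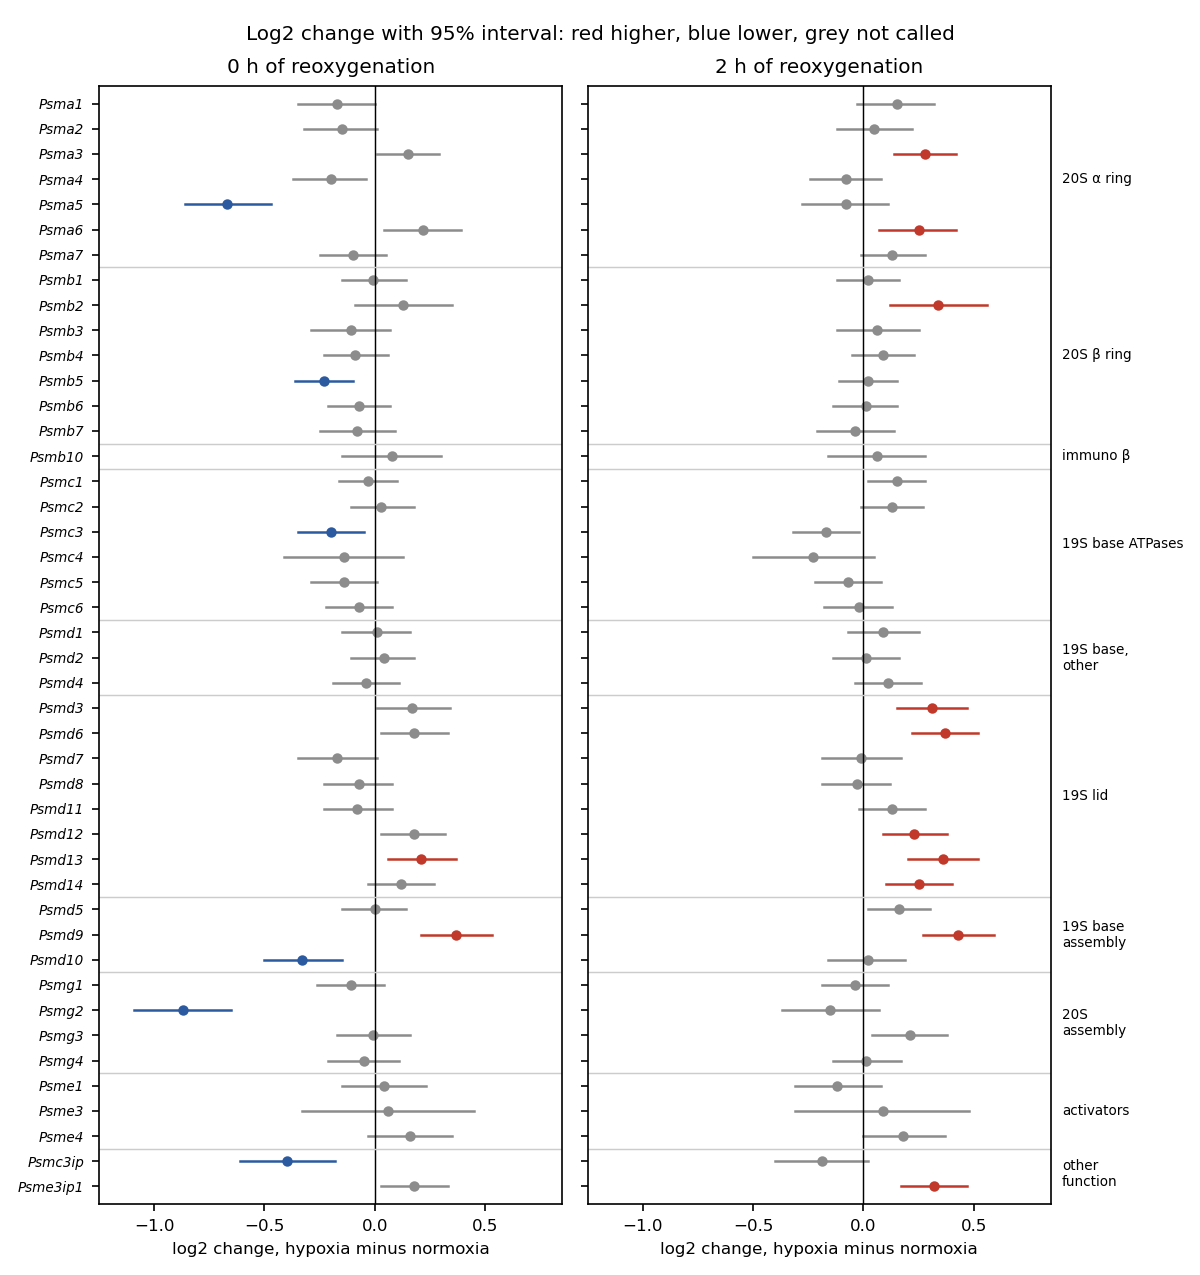
Log2 change with its 95% interval (horizontal axis) for the 44 tested genes in rows at 0 h (left) and 2 h (right), in red where called higher, blue where called lower and grey where not called. The lid genes Psmd3, Psmd6, Psmd12, Psmd13 and Psmd14 are red at 2 h with log2 changes of 0.23 to 0.37, and no ATPase gene is red.

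Promoter sequences of RefSeq (build GRCm38.p6, 250 bases before to 50 after each gene start) were matched to 40 of the 48 genes, which gave 43 promoters. The motif CCGGAAGT, bound by ETS family factors, was searched on both strands and found in 10 of them (23.3%), in 9 genes. It stood in 8.13% of the 10732 promoters of genes tested at 2 h and in 3.89% of all 32851 promoters. Of the 8 genes with a promoter that rose at 2 h, 4 hold it (Psma6, Psmd6, Psmd12 and Psmd13), and of the 6 lid genes with a promoter, 3 do. The antioxidant response element TGACNNNGC was found in 6 promoters (14%), against 14.1% of those of tested genes, CCAAT in 16 (37.2% against 37.4%) and ACGTG, the core of the hypoxia response element, in 9 (20.9% against 25.8%). Of the same 8 genes that rose at 2 h, 4 hold CCAAT, 3 ACGTG and 2 the antioxidant element. Each of these 3 motifs stands in 1 of the 6 lid genes. Such a match describes letters and no binding was measured, and the motifs were chosen with the values known. The first 4 sequences below are those of lid genes that rose at 2 h, 3 with the ETS motif in capitals and Psmd14 without it, Psmd9 is shown for its antioxidant element in capitals, and Psma5 for comparison as the gene that fell at 0 h, with neither motif. Each runs from 120 bases before the start through the first 20 bases of the transcript, at chr14:14120926-14121065 on the minus strand (Psmd6), chr11:107479408-107479547 (Psmd12), chr7:140882274-140882413 (Psmd13), chr2:61711574-61711713 (Psmd14), chr5:123228070-123228209 (Psmd9) and chr3:108256806-108256945 (Psma5), the last 5 on the plus strand.
Psmd6: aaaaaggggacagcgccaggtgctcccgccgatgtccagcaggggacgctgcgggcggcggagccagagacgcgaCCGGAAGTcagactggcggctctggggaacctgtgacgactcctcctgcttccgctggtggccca
Psmd12: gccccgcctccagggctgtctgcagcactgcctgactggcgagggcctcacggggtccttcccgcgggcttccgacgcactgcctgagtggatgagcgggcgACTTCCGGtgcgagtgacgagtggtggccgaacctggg
Psmd13: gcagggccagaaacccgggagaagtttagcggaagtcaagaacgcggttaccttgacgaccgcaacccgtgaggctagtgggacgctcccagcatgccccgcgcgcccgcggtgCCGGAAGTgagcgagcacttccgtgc
Psmd14: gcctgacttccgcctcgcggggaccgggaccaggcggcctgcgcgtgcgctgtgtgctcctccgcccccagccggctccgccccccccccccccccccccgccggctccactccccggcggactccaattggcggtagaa
Psmd9: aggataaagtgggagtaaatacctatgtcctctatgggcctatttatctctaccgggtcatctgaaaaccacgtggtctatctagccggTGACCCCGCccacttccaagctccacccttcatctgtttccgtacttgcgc
Psma5: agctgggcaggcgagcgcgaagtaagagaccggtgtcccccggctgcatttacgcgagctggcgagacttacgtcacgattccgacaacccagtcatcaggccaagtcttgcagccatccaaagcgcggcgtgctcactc

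The ETS motif lies close to the start in these promoters, with its first base at -45 in Psmd6, at -18 in Psmd12, where it reads on the other strand as ACTTCCGG, and at -6 in Psmd13, counted from the start. The element of Psmd9 begins at -31. Matches to CCAAT and ACGTG are not in capitals, such as ACGTG in Psmd9 at -50 and, on the other strand, at -51.

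No activator of the core was called. Psme1, part of the interferon induced PA28 cap, had log2 changes of 0.04 at 0 h and -0.12 at 2 h, Psme3, its nuclear relative, of 0.06 and 0.09, and Psme4, which encodes PA200, of 0.16 and 0.18, all without a call. The 95% interval of Psme3 at 0 h, -0.33 to 0.45, was the widest of the tested genes shown. The probe set shared by Psme2 and Psme2b averaged 9.30 in hypoxic and 9.52 in normoxic pools at 2 h (-0.23, adjusted p = 0.061). Of the genes that are no proteasome part, Psme3ip1 was higher at 2 h, with 10.28, 10.37 and 10.33 in hypoxic pools and 10.04, 10.00 and 9.98 in normoxic pools (0.32 ± 0.07, adjusted p = 0.00518), a call lost when the 6 arrays of 2 h were fitted alone. Psmc3ip was lower at 0 h, with 6.59, 6.78 and 6.80 in hypoxic pools and 7.09, 6.93 and 7.35 in normoxic pools (-0.40 ± 0.10, adjusted p = 0.00477), close to the signal threshold of 6.69.

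In several genes single probe sets went their own way. For Psmd4, a ubiquitin receptor of the base, 1 of 3 tested probe sets gave 7.32, 7.46 and 7.63 in hypoxic pools at 0 h and 6.96 to 7.08 in the 3 normoxic pools (0.45 ± 0.11, adjusted p = 0.0027), while the others were at -0.04 and -0.14 and not called. For Psmc6, 1 of 3 tested probe sets gave 9.81, 10.09 and 9.84 in hypoxic pools and 9.50, 9.33 and 9.68 in normoxic pools (0.41 ± 0.16, adjusted p = 0.049), while the representative one was at -0.07 and the last at 0.47 (adjusted p = 0.119). That call was lost without any of 5 of the 6 arrays of 0 h, the exception being normoxic pool 3. For Psmd11, 1 of 4 tested probe sets gave 9.28, 9.20 and 9.24 in hypoxic pools and 9.62, 9.74 and 9.53 in normoxic pools (-0.39 ± 0.09, adjusted p = 0.00157), and the other 3 tested were between -0.18 and 0.04 without a call. Probe sets of a gene can lie on different transcripts, and the identifier of the Psmc6 one carries the suffix that Affymetrix gives to probe sets that can match transcripts of several genes. The representative probe set of Psma6 and the second one of Psmd13 carry the suffix for probes that may bind unrelated transcripts. Psmd4, Psmc6 and Psmd11 were each called at 0 h by a single probe set that is not the representative one. They are not among the changed genes counted by the representative probe set. For Psmg2, Psma5, Psma6 and Psmd13, by contrast, more than 1 probe set was called in the same direction, at 0 h for Psmg2 and Psma5, at 2 h for Psma6, and at both times for Psmd13, where the second probe set rose by 0.29 at 0 h and by 0.34 at 2 h. A further probe set of Psmd13 was at -0.27 and -0.23 without a call. The calls of the second probe set were lost without hypoxic pool 2 or 3 or normoxic pool 3 at 0 h and without hypoxic pool 1 or normoxic pool 1 at 2 h.

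**Figure D4:**
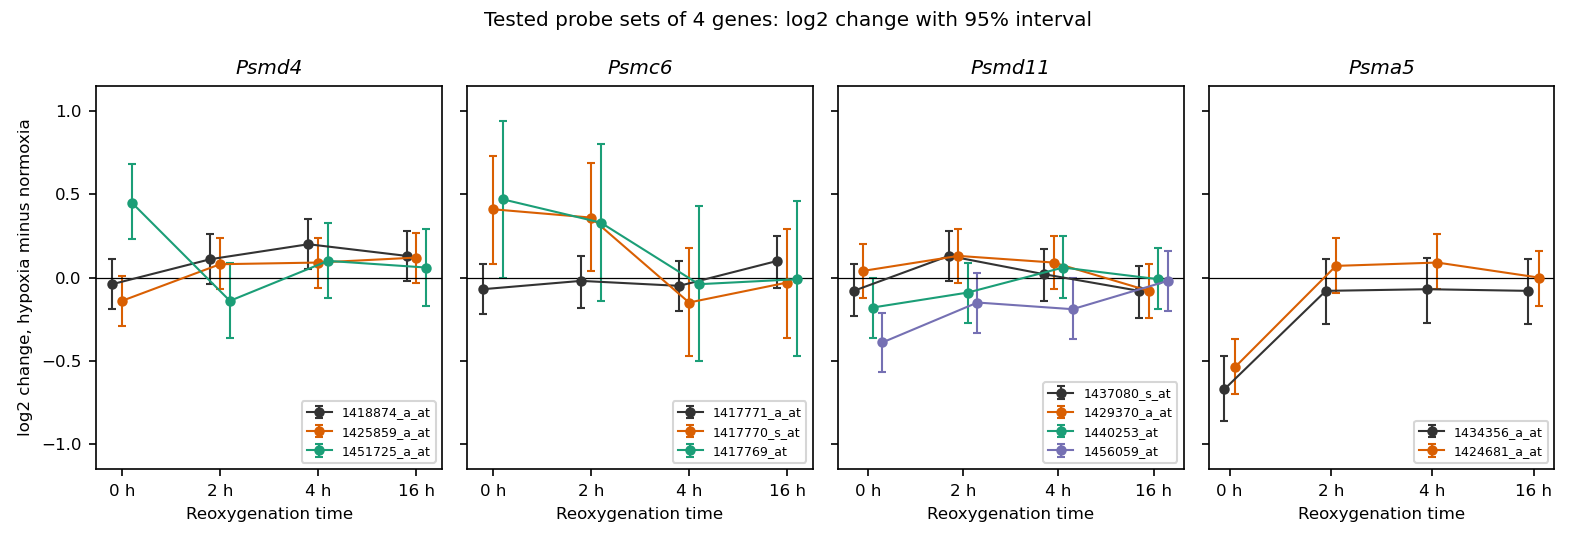
Log2 change (vertical axis, hypoxia minus normoxia, with 95% interval) of each tested probe set of Psmd4, Psmc6, Psmd11 and Psma5 against reoxygenation time (equally spaced). In the first 3 genes 1 or 2 probe sets stand apart at 0 h, such as 1 of Psmd4 at 0.45 against -0.04 and -0.14, and in Psma5 both probe sets are low at 0 h.

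Later in reoxygenation no proteasome gene was called. At 4 h 0 of 69 probe sets had changed by limma (1.43% of all 18498, 0.876% higher and 0.551% lower), with 4 higher and 2 lower at an unadjusted p under 0.05 and 0 by the methods' t-test. The 44 genes averaged 10.20, 10.24 and 10.17 in hypoxic pools, against 10.14, 10.17 and 10.20 in normoxic pools, with overlap of the groups. Hypoxic pools lay above all normoxic pools in 10 probe sets and below in 3, with backgrounds of 17.1% and 10.2%. At 16 h 0 of 70 had changed by limma, as had 0% of all 18423 probe sets, and 1 was higher at an unadjusted p under 0.05 (Psmd5, 0.15) and 0 by the methods' t-test. The hypoxic pools lay above the normoxic ones in 6 probe sets and below in 0 at 16 h, with backgrounds of 6.87% and 4.18%. The effect at 0 h differed from the later one in 4 of 71 probe sets at 2 h (5.63%, against 8.21% of all), in 5 at 4 h (7.04%, against 16.9%) and in 9 at 16 h (12.7%, against 20.6%). Over the 4 times, the normoxic groups alone were called different in 0 of the 70 tested probe sets (F test in limma, smallest adjusted p 0.12, 6 at an unadjusted p under 0.05), against 3.54% of all probe sets, and the normoxic means of a probe set spanned 0.02 to 0.36 log2 units.

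Genes that work with the proteasome under other symbols moved in both directions at 0 h. Of 11 tested proteins that bind or build it, 2 rose and 4 fell (18.2% and 36.4%, against 15.2% and 17.2% of all probe sets). Psmf1, an inhibitor of the 20S core, averaged 9.26 ± 0.06 in hypoxic and 8.93 ± 0.06 in normoxic pools (SD, n = 3 each, log2 change 0.33, adjusted p = 0.00235), and Zfand2a, a stress induced partner of the 19S cap, averaged 10.39 ± 0.07 in hypoxic and 10.01 ± 0.05 in normoxic pools (0.38, adjusted p = 0.00187). Akirin2, which carries proteasomes into the nucleus, was lower, at 10.77 ± 0.06 in hypoxic and 11.16 ± 0.07 in normoxic pools (-0.39, adjusted p = 0.00017). Sem1, a small lid subunit (-0.22), Pomp, the maturation factor of the core (-0.19), and Zfand5 (-0.19) were lower by less, and each of these 3 calls was lost on leaving out single arrays, Sem1 without hypoxic pool 1 or normoxic pool 2, Zfand5 without hypoxic pool 1 or 3 or normoxic pool 1 or 3, and Pomp without most arrays. At 2 h 2 of 11 were higher and 0 lower (18.2% and 0%, against 9.19% and 7.38% of all probe sets). These were Psmf1 (0.37, adjusted p = 0.0025) and Zfand2a (0.27, adjusted p = 0.0357). The call of Zfand2a was lost without hypoxic pool 1 or 2 or normoxic pool 1 or 2.

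Among ubiquitin and shuttle genes, 1 of 5 tested changed at 0 h (20%, against 32.4% of all probe sets) and 0 of 5 at 2 h (against 16.6%). The gene called at 0 h was Uba6, an enzyme that activates ubiquitin. It averaged 8.20 ± 0.09 in hypoxic and 8.78 ± 0.12 in normoxic pools (log2 change -0.58, adjusted p = 7.96e-05). Nfe2l1, the transcription factor that raises proteasome genes when proteasome activity is low, was not called at 0 h (-0.02) or 2 h (0.04). Of the 8 tested genes in its list, which includes it, Ngly1, which removes glycans from the factor, was lower at 0 h (-0.35, adjusted p = 0.00677) and higher at 2 h (0.31, adjusted p = 0.0297), the first call being lost without hypoxic pool 1 of 0 h and the second without any array of 2 h but normoxic pool 3. Mafk, a dimer partner, was higher at 0 h (0.40, adjusted p = 0.0291). This call was lost without hypoxic pool 1 or 3 or normoxic pool 2 or 3. Ufd1, a p97 cofactor, was higher at 2 h (0.22, adjusted p = 0.0469, lost without any array of 2 h). Of the tested genes of this list, 12.5% were higher and 12.5% lower at 0 h, against 15.2% and 17.2% of all probe sets. At 2 h 25% were higher and 0% lower, against 9.19% and 7.38%. Maff, of the same list, averaged 6.45 ± 0.15 in hypoxic and 5.31 ± 0.15 in normoxic pools at 0 h (log2 change 1.14). Both means were below the signal threshold, so Maff was not tested. In the list of antigen processing and interferon genes, Irf3, which switches on interferon genes, was 8.42 ± 0.12 in hypoxic and 9.07 ± 0.03 in normoxic pools at 0 h (-0.65, adjusted p = 3.28e-06). The other 6 tested genes were not called, so 14.3% of the list fell, against 17.2% of all probe sets. At 2 h Irf3 was lower by less (-0.25, adjusted p = 0.0389), a call lost without any array but hypoxic pool 2. It was the 1 gene of this list called at 2 h (14.3% lower, against 7.38%).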

How the data were processed

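Retinal RNA was hybridized to Affymetrix mouse genome arrays. The authors deposited log2 values made with RMA (version not given in the sources used here), which subtracts background, normalizes the arrays to each other and summarizes each probe set. The gene lists of the study came from GCRMA values, not used here. Signal over background, not read depth, limits precision, together with the 3 arrays per group. No array was a copy of another (highest correlation 0.997). After removal of 64 control probe sets, 45037 were fitted with limma 3.58.1 in R 4.3.3, in 1 model with a mean for each of the 8 groups (16 residual degrees of freedom, eBayes), and the 18423 to 18799 that passed the study's filter on low signal at a time point were tested there. Effects of time points were compared as contrasts of contrasts. Symbols came from the array annotation (34945 probe sets with 1 gene, 932 with several, 9160 with none). The fit was tested on simulated data. Members, lists and motifs were chosen with earlier results of these data known. Named genes were those with the largest changes and non-overlapping pools, the catalytic subunits, the activators, members of another function and changed genes of the pathway lists, and in addition, chosen after their values were seen, all other called members and the unchanged genes of each group. Alternatives were other filters, scalings, variance models and tests, a replicate block and leaving out arrays.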

Additional observations from a re-analysis of the deposited data

Results flagged for a closer look

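These results were noted because the effect of hypoxia on a probe set differed between 0 h and a later time point in limma's test of the difference itself (adjusted p under 0.05). All values are the log2 change at 0 h minus that at the later time. Against 2 h, Psma5 differed by -0.58 in its representative and -0.61 in its second probe set, Psmg2 by -0.72 in its representative probe set, and Psmd4 by 0.59 in the probe set that rose at 0 h. Against 4 h, Psma5 differed by -0.60 and -0.63, Psmg2 by -0.79 and -0.76 (second probe set), and Psmd10 by -0.40. Against 16 h, Psma5 differed by -0.58 and -0.53, Psmg2 by -1.05 and -0.87, Psma6 by 0.34 (representative) and 0.33 (second probe set), Psmb5 by -0.31, Psmc3ip by -0.52 and Psmd11 by -0.37 in the probe set that fell at 0 h. The differences of Psma5, Psmg2, Psmb5 and Psmc3ip kept their call on leaving out any 1 array of the times compared. That of Psmd4 was lost without hypoxic pool 3 of 0 h or of 2 h (adjusted p up to 0.063), and that of Psmd10 without hypoxic pool 1 or normoxic pool 3 of 0 h or hypoxic pool 2 of 4 h (up to 0.0734). Of the 12 arrays of 0 and 16 h, leaving out 1 ended the call of Psma6 for 3 arrays with the second probe set (hypoxic pool 3 and normoxic pool 2 of 0 h, and hypoxic pool 1 of 16 h) and for 9 with the representative one, and that of Psmd11 for 9 (up to 0.111 and 0.0975).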

How the results depend on the processing

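No called change of a named gene reversed its direction in any alternative, while uncalled values near 0, such as Psme3 at 0 h (0.06, lowest -0.07) and Psmb10 at 0 h (0.08, lowest -0.01), crossed 0 on leaving out 1 array. With no filter on signal the median log2 change at 2 h was 0.02 instead of 0.07. A trended and robust variance gave 7 probe sets whose effect differed between 0 and 2 h and 8 between 0 and 4 h, in place of 4 and 5, and 22 changed at 0 h (11 higher, 11 lower) in place of 16. The methods' t-test called 12 probe sets at 0 h and 1 at 2 h after adjustment, and 2 and 2 at an unadjusted p under 0.001. When only the 6 arrays of a time point were fitted, 11 were changed at 0 h and 3 at 2 h. Fitting 1 probe set per gene gave 13 changed genes at 0 h (6 higher, 7 lower), of which 8 are called in the fit of all probe sets, and 10 at 2 h, all higher. At 2 h lower calls appeared under quantile normalization (1), array weights (1) and the trended variance (2). Leaving out 1 array gave 11 to 18 changed probe sets at 0 h, 5 to 12 at 2 h, and 0 at 4 and 16 h. Medians then ranged from -0.07 to -0.03 at 0 h, 0.04 to 0.08 at 2 h (0.04 without normoxic pool 3 of 2 h), 0.01 to 0.05 at 4 h and 0 to 0.02 at 16 h (0.02 without hypoxic pool 3 of 16 h). Effects differed from 0 h in 3 to 5 probe sets at 2 h, 4 to 6 at 4 h and 6 to 10 at 16 h, and the normoxic groups differed in 0 to 1 (1 without normoxic pool 3 of 2 h). Same-numbered hypoxic and normoxic pools were not taken as pairs, since their deviations correlated between -0.227 and 0.237, 2 of 12 above 0.1. With the replicate number as a block, 12 probe sets changed at 0 h, 8 at 2 h (all higher) and 0 at 4 and 16 h, and effects differed from 0 h in 3, 5 and 6 probe sets at 2, 4 and 16 h, with 0 differing among the normoxic groups. The differences between time points that were then no longer called were those of Psmd4 at 2 h and of Psma6 (both probe sets), Psmb5 and Psmd11 at 16 h. The 3 arrays per group and signals near the threshold limit what changes could be called.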
